A study of Mus musculus with 6 samples.

Results

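The pyruvate dehydrogenase complex and the enzymes that switch it off and on were followed in kidney samples of fumarate hydratase (Fh1) knockout and wild-type mice. The group holds 10 genes: the subunits Pdha1, Pdhb, Dlat and Pdhx, the kinases Pdk1, Pdk2, Pdk3 and Pdk4, and the phosphatases Pdp1 and Pdp2. All 10 were measured, by 18 of the 45101 probe sets of the array, out of 18193 genes in all. Where a gene had several probe sets, the one with the highest mean over the 6 arrays stood for it and the others are given beside it. The samples were 3 from Fh1 knockout mice, dissected from cystic renal epithelium, and 3 from wild-type littermates, which were free of disease and matched for sex. Each sample was on 1 Affymetrix array, and values are RMA (robust multi-array average) expression values on the log2 scale. The titles of both groups say only mouse kidney, and any difference in dissection between the groups cannot be told apart from genotype. The labels give no Cre driver, allele, strain or age. They also do not say that each sample came from its own animal, and p-values then cover only the spread among these 6 samples, which may be technical.

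Pyruvate made by glycolysis enters the mitochondrion and is turned by the complex into acetyl-CoA, the fuel of the tricarboxylic acid cycle. Pdha1 and Pdhb encode the alpha and beta chains of its first enzyme, pyruvate dehydrogenase proper. Dlat encodes the lipoyl-bearing acetyltransferase core, and Pdhx the binding protein that holds the dihydrolipoamide dehydrogenase Dld in place. The Pdk kinases phosphorylate the alpha chain and stop the complex, and the Pdp phosphatases remove the phosphate and restart it. Such control at the protein level is not read by an array, which measures transcripts only.

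Transcripts of all 4 subunits fell in the knockout, and the regulators split by isozyme. Among the kinases Pdk1 rose, Pdk2 and Pdk3 fell, and Pdk4 did not pass the test. Among the phosphatases Pdp1 rose and Pdp2 fell. Of the 10 genes, 2 were higher and 7 lower at an adjusted p under 0.05 (limma, adjusted over 18193 genes), with a median log2 fold change of -0.50 (knockout minus wild type). Of all genes, 49.2% were called, 21.6% as higher and 27.7% as lower, and the median of all genes was -0.11. Lower genes were 56.2% of all calls, and 67.0% with every array shifted to a common median over the tested genes. Higher genes outnumbered lower ones in the brighter part of the genes (mean signal not below the median), where 44.2% of calls were lower and the median log2 fold change was 0.05, and also with a minimum of 1.5-fold (42.9% lower) or a threshold of 0.01 (47.3% lower). The 3 knockout and 3 wild-type values did not overlap for 9 of the 10 genes, against 62.9% of all genes.

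Arrays of a group resembled each other more than those of the other group (Pearson r over genes 0.995 to 0.997 within knockout, 0.988 to 0.992 within wild type and 0.952 to 0.964 between; genes are not replicates). Fh1 itself, the targeted gene, was lower in the knockout, at 11.54, 11.60 and 11.61 against 12.41, 12.34 and 12.22 in wild type (log2 fold change -0.74, SE 0.08, adjusted p = 0.000396). Its probe set may or may not read the deleted exons, which the labels do not give. Markers of several cell types differed between the groups. All 13 proximal tubule markers were lower, with a summed level of 15.30 to 15.54 in knockout and 16.81 to 16.88 in wild-type arrays (log2 of the sum of linear values). Of 8 loop and distal tubule markers, 7 were lower, with summed levels of 14.31 to 14.68 in knockout and 15.65 to 15.80 in wild type. Immune markers were higher in 10 of 12 and summed to 14.02 to 14.37 in knockout and 12.75 to 13.12 in wild type. Fibroblast and matrix markers were higher in 8 of 10, with sums of 13.55 to 14.30 in knockout and 11.98 to 12.40 in wild type. Of 8 collecting duct markers 3 were lower and none higher, and of 8 endothelial markers 7 were lower and none higher. None of 4 adipocyte markers passed, but they differed widely between arrays of a group. Adipoq read 5.60, 4.32 and 10.30 in knockout and 6.65, 10.73 and 6.72 in wild type. Fabp4 and Retn were also highest within their group in knockout replicate 3 and wild-type replicate 2, Lep only in wild-type replicate 2. The part of cell make-up in the results below was not tested, and fewer cells of a type cannot be told apart from less RNA per cell.

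Pdha1, the chain that carries the phosphorylation sites, read 12.08, 12.10 and 12.15 in knockout arrays, against 12.57, 12.58 and 12.54 in wild-type arrays. The groups were narrow and separate, with means of 12.11 ± 0.04 in knockout and 12.56 ± 0.02 in wild type (SD, n = 3 each). The gene was 1.37-fold lower (log2 fold change -0.46, SE 0.07, adjusted p = 0.00205). Its other probe set read 10.98, 11.14 and 11.28 in knockout and 11.83, 11.71 and 11.76 in wild type, a log2 fold change of -0.64.

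Pdhb, the beta chain, read 11.21, 11.18 and 11.25 in knockout arrays, against 11.68, 11.71 and 11.54 in wild-type arrays. No knockout array reached a wild-type one, and the gene was 1.35-fold lower (log2 fold change -0.43, SE 0.08, adjusted p = 0.00454). The other probe set of Pdhb gave a larger difference, at 7.04, 6.94 and 7.02 in knockout and 7.92, 7.89 and 7.66 in wild type (log2 fold change -0.82).

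Dlat read 9.83, 9.79 and 9.90 in knockout arrays, against 10.48, 10.51 and 10.35 in wild-type arrays, again without overlap. It was 1.52-fold lower (log2 fold change -0.60, SE 0.08, adjusted p = 0.000965). This probe set is of a type whose probes can match other transcripts, and the remaining 2 of the gene gave log2 fold changes of -0.56 and -0.76, both called. Pdhx read 7.92, 7.95 and 8.06 in knockout and 8.69, 8.69 and 8.70 in wild type. Its wild-type values were almost identical (SD 0.0050), and the gene was 1.65-fold lower (log2 fold change -0.72, SE 0.08, adjusted p = 0.000320).

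All 8 probe sets of the 4 subunits were therefore called lower, with log2 fold changes of -0.82 to -0.43. Of all 45037 probe sets tested, 10529 were called lower, and 44.0% were called in either direction. Probe sets of the same gene are not separate evidence. The 95% intervals of the 4 genes overlapped, from -0.63 to -0.29 for Pdha1, -0.62 to -0.24 for Pdhb, -0.80 to -0.41 for Dlat and -0.90 to -0.54 for Pdhx. No test of a difference between subunits was made. Dld, the dihydrolipoamide dehydrogenase that completes the complex and also serves related complexes, was lower as well. It read 10.47, 10.45 and 10.55 in knockout arrays and 11.34, 11.26 and 11.23 in wild-type arrays, and was 1.73-fold lower (log2 fold change -0.79, SE 0.08, adjusted p = 0.000227). Averaged over its 2 probe sets, the log2 fold change of Dld was -0.58.

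**Figure D1:**
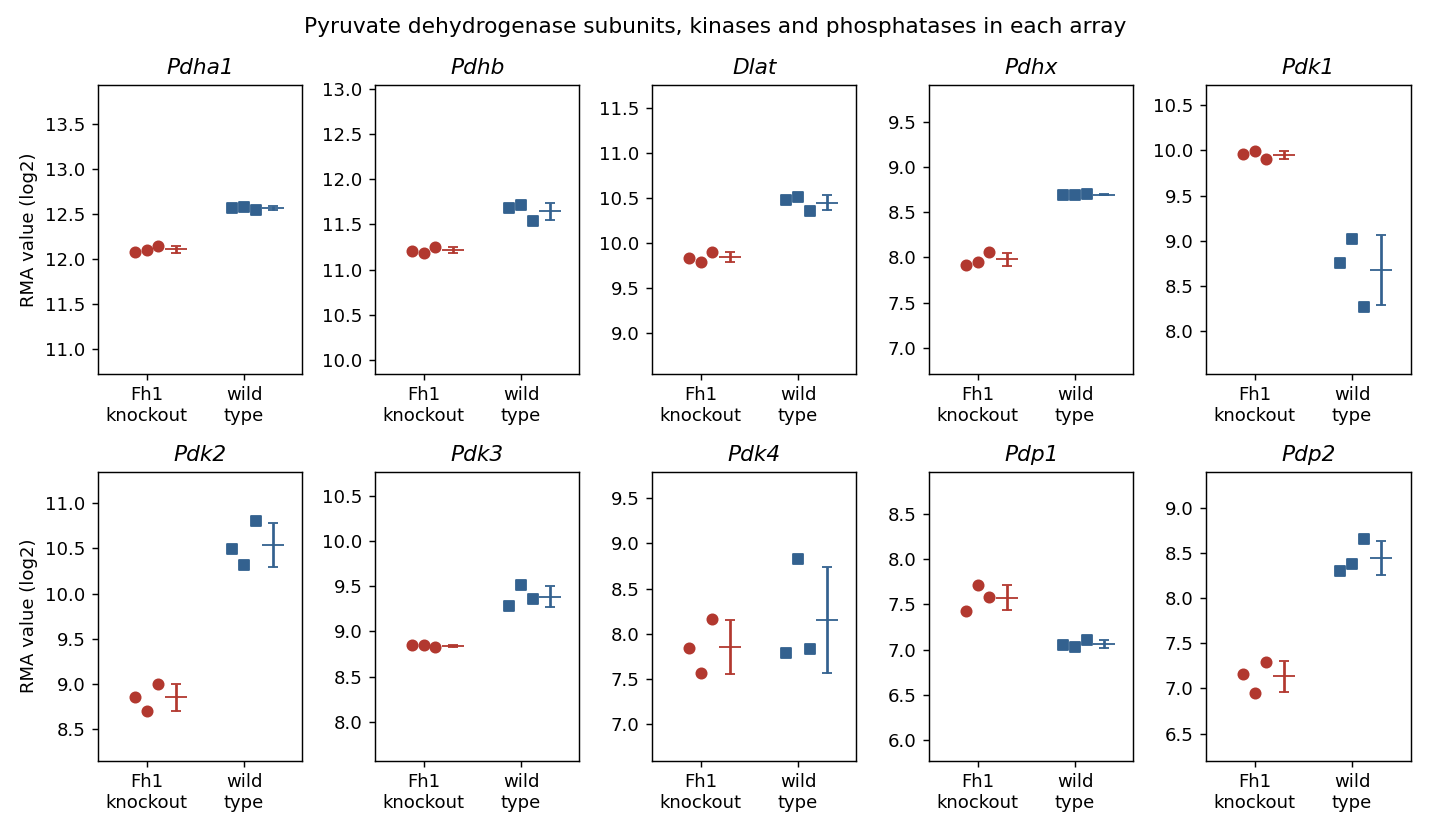
RMA value (log2) of the 10 genes in each array, knockout left (red circles) and wild type right (blue squares), with the group mean and SD beside the points (n = 3 each). Every panel spans the same range of log2 units; the groups are apart in 9 panels and overlap for Pdk4.

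Pdk1 rose and Pdk2 fell, and these were the kinases with the widest changes. Pdk1, a kinase known as a target of the hypoxia-inducible factor HIF-1, read 9.96, 9.99 and 9.90 in knockout arrays, against 8.75, 9.02 and 8.26 in wild-type arrays. The knockout arrays were close together and all above wild type, whose lowest value was in replicate 3. Means were 9.95 ± 0.05 in knockout and 8.68 ± 0.38 in wild type (SD, n = 3 each), a 2.42-fold difference (log2 fold change 1.27, SE 0.18, adjusted p = 0.00104). This log2 fold change was above those of most genes, at percentile 96.6 of the 18193.

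The 4 probe sets of Pdk1 did not move alike. A further pair of them rose with it: 1 read 9.46, 9.57 and 9.59 in knockout and 8.62, 8.91 and 8.68 in wild type (log2 fold change 0.81), and the other 5.60, 5.64 and 5.67 in knockout and 4.69, 4.77 and 4.60 in wild type (log2 fold change 0.95). The last read 8.91, 8.84 and 8.95 in knockout and 8.34, 8.97 and 8.99 in wild type. Only wild-type replicate 1 stood below the others there, the groups overlapped, and this probe set was not called (log2 fold change 0.13, SE 0.17, adjusted p = 0.546 over all probe sets). With the mean over its probe sets, the log2 fold change of Pdk1 was 0.79 and stayed called (adjusted p = 0.000632). Which stretch of the transcript each probe set reads is not known here.

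Pdk2, a widely expressed kinase that rises with fasting in several tissues, read 8.85, 8.70 and 9.00 in knockout arrays, against 10.49, 10.32 and 10.80 in wild-type arrays. More than a full log2 unit lay between the groups. Means were 8.85 ± 0.15 in knockout and 10.54 ± 0.25 in wild type (SD, n = 3 each), and Pdk2 was 3.22-fold lower (log2 fold change -1.69, SE 0.14, adjusted p = 0.000102). Its log2 fold change was at percentile 0.932 of all genes, near the low end. Proximal tubule markers (median log2 fold change -1.53) and loop and distal tubule markers (-1.20) were also lower in the knockout arrays. Immune and fibroblast markers were higher (medians 1.76 and 1.65). A link of any of these with Pdk2 was not tested.

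Pdk3, the X-linked kinase, read 8.85, 8.85 and 8.83 in knockout arrays, against 9.28, 9.51 and 9.36 in wild-type arrays. The knockout values had an SD of 0.01 and lay below all wild-type values, a 1.45-fold difference (log2 fold change -0.54, SE 0.09, adjusted p = 0.00205). Pdk4, the kinase induced by fasting and by PPAR-alpha in other tissues, read 7.84, 7.56 and 8.16 in knockout and 7.79, 8.83 and 7.83 in wild type. Wild-type replicate 2 was the highest array and the rest of the values were mixed between groups. Like Pdk4, the adipocyte marker Adipoq was highest within its group in wild-type replicate 2 and knockout replicate 3. A link between fat content and Pdk4 was not tested. The log2 fold change of Pdk4 was -0.30 (SE 0.28, 95% interval -0.96 to 0.37, adjusted p = 0.403) and did not pass. Without wild-type replicate 2 it was 0.046, so no direction can be given for Pdk4, and the interval includes changes as large as that of Pdk3.

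**Figure D2:**
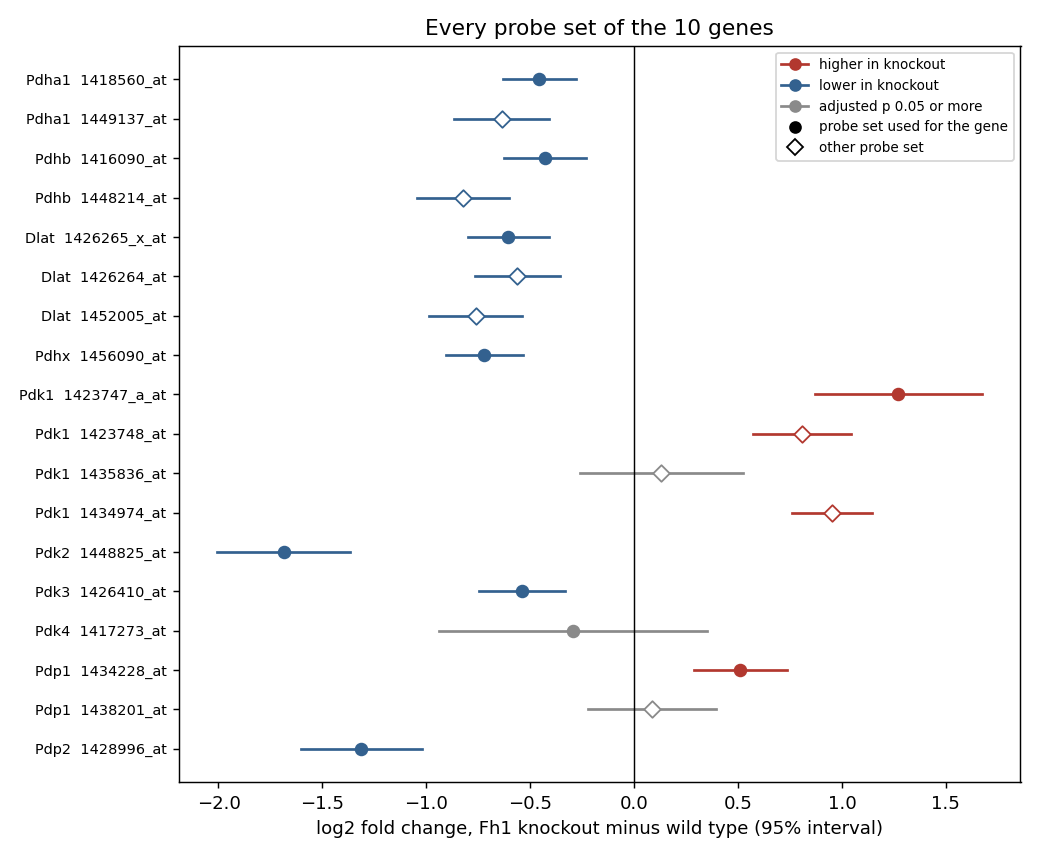
Log2 fold change (knockout minus wild type) of all 18 probe sets with the 95% interval of the fit over all probe sets, filled circles for the probe set that stands for a gene and open diamonds for the others. The 8 subunit probe sets lie left of 0 and all 4 Pdk1 probe sets right of it. The interval of the Pdk1 probe set not called includes 0, and grey marks the 3 probe sets that did not pass.

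Pdp2 fell and Pdp1 rose. Pdp2, the phosphatase subunit that does not depend on calcium, read 7.16, 6.95 and 7.29 in knockout arrays, against 8.30, 8.38 and 8.65 in wild-type arrays. The groups were about a log2 unit apart at their nearest, with means of 7.13 ± 0.17 in knockout and 8.44 ± 0.18 in wild type (SD, n = 3 each). Pdp2 was 2.48-fold lower (log2 fold change -1.31, SE 0.13, adjusted p = 0.000198), at percentile 1.89 of all genes.

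Pdp1, the calcium-stimulated phosphatase subunit, read 7.43, 7.71 and 7.58 in knockout arrays, against 7.05, 7.03 and 7.11 in wild-type arrays. All knockout values were above wild type, a 1.43-fold difference (log2 fold change 0.51, SE 0.09, adjusted p = 0.00392). Its second probe set did not show this: 6.25, 6.12 and 6.26 in knockout overlapped 6.38, 6.15 and 5.86 in wild type (log2 fold change 0.09, SE 0.13, adjusted p = 0.612 over all probe sets). The mean of both gave a log2 fold change of 0.30, which was called. Pdpr, the regulatory subunit of the phosphatase, read 9.64, 9.47 and 9.55 in knockout and 9.78, 9.82 and 9.43 in wild type. The groups overlapped, and its log2 fold change of -0.13 (SE 0.12, adjusted p = 0.396) was not called. Of its other 3 probe sets 1 was called lower, and the mean of all 4 was -0.36 (adjusted p = 0.0192). The probe set that stood for Pdpr is of the same type as that of Dlat, whose probes can match other transcripts.

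Whether isozymes of one family changed unequally was asked within each array, by subtracting the log2 value of one from that of another. This was done for 6 pairs of kinases and 1 pair of phosphatases, and only the shift of each difference between groups is read. Relative to the wild-type mean, Pdk1 minus Pdk2 stood at 2.97, 3.14 and 2.76 in knockout arrays, against 0.12, 0.56 and -0.68 in wild-type arrays. The mean shift of 2.96 was the widest of the 7 pairs, and the groups were far apart. Pdk1 minus Pdk3 shifted by 1.81 and Pdk1 minus Pdk4 by 1.57, both with every knockout array above every wild-type array. Pdk2 minus Pdk3 shifted by -1.15, and Pdk2 minus Pdk4 by -1.39, with every knockout array below every wild-type array.

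Pdp1 minus Pdp2 stood at 1.65, 2.15 and 1.67 in knockout arrays, against 0.13, 0.02 and -0.15 in wild-type arrays, a shift of 1.82. In 6 of the 7 pairs the groups did not overlap and the exact two-sided permutation test gave p = 0.1, the smallest value 3 against 3 samples allow (0.117 adjusted over the 7). Pdk3 minus Pdk4 overlapped, with a shift of -0.25 and p = 0.5 by the same exact test. This test therefore cannot pass a threshold of 0.05 with these samples. The pairs share genes, and their separation largely repeats the changes of the single genes given above. Among single genes 62.9% did not overlap, and no such share was computed over other gene pairs.

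The order of replicates within a group differed between isozymes. Wild-type replicate 3 held the lowest wild-type value of Pdk1 and the highest of Pdk2 and Pdp2. Knockout replicate 2 held the highest knockout value of Pdk1 and Pdp1 and the lowest of Pdk2, Pdk4 and Pdp2. With 3 arrays in a group these orders are a description only.

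**Figure D3:**
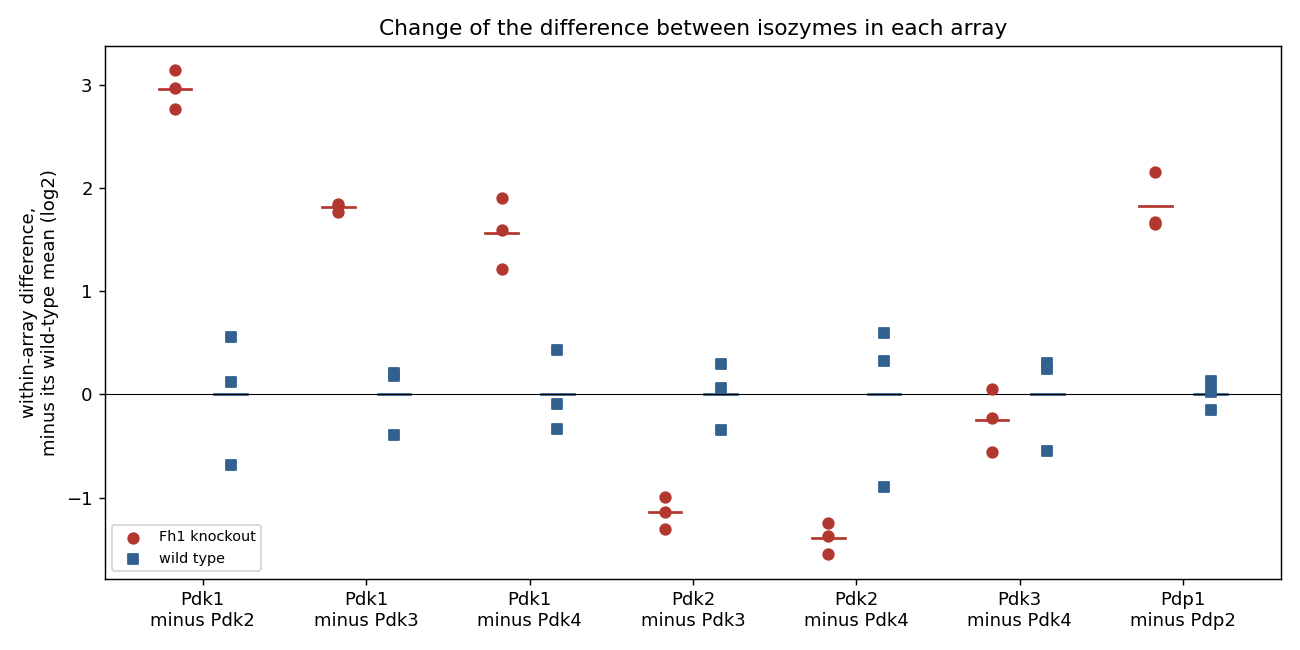
Within-array difference of log2 RMA values for 6 kinase pairs and 1 phosphatase pair, after subtracting the wild-type mean of that difference, in knockout arrays (red circles, left) and wild-type arrays (blue squares, right); short lines are group means. The groups are apart for every pair except Pdk3 minus Pdk4.

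The start regions of Pdk1, Pdk2 and Pdp2, the isozymes with the largest changes, are shown because Pdk1 moved the opposite way to the others. The windows are the 250 bases upstream of the RefSeq transcript start (GRCm38.p6), printed along the gene's strand, and capitals mark ACGTG or its reverse complement. ACGTG is a form of the core of the element bound by hypoxia-inducible factors, which can also read GCGTG. With a C before it, ACGTG is the palindrome CACGTG, an E-box. GCGTG was not searched and is not marked. Those of Pdk1 (chr2:71872974-71873223, plus strand), Pdk2 (chr11:95041372-95041621, minus strand) and Pdp2 (chr8:104591222-104591471, plus strand) read as follows.
Pdk1: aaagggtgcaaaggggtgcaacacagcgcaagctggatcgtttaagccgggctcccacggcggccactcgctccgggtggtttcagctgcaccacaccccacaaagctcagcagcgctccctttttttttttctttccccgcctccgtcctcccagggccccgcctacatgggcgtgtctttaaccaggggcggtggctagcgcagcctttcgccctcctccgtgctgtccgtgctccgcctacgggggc
Pdk2: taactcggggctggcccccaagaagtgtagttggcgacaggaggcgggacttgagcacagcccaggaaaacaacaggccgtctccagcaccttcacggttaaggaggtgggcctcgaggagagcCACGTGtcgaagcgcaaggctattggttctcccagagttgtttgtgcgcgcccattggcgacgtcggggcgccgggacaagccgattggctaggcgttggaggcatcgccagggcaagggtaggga
Pdp2: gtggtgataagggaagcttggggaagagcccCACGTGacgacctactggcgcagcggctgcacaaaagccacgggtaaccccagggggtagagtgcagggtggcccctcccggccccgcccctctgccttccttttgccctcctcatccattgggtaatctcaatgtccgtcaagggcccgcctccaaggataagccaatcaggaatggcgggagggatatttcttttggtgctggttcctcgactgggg

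RefSeq windows were found for 9 of the 10 genes (not Pdp1), 11 windows in all. Pdk1 and Pdk2 had 2 windows each, and the Pdk2 window not printed held no ACGTG. On both strands, ACGTG was present in 1 window each of Pdk2, Pdp2, Pdk3 and Pdhb, and in 16.6% of all 32851 windows of this length. In Pdk2 and Pdp2 it lay within CACGTG, so the matches on both strands overlap; CACGTG was in 6.02% of all windows and was searched after the ACGTG matches were seen. The Pdk2 match began 126 bases and the Pdp2 match 219 bases before the start. Neither window of Pdk1 held ACGTG. Read by eye, the printed one holds GCGTG, but so do the windows of Pdha1, Pdhx and Pdk3, called lower, and Pdk4, not called. That of Pdhb, called lower, holds GCGTG on the other strand. No share of GCGTG over all windows was computed, and the ACGTG matches do not say which genes have the core. The 4 genes with a match were called lower, as were 7 of the 9 genes with a window. The element TNAAGGTCA of estrogen-related receptors and the palindromic element of nuclear respiratory factor 1 were in none of the 11 windows, and in 1.14% and 0.782% of all windows. A match is a description of letters and not a binding site, and a missing match says only that these letters are not in this window.

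Of 16 measured genes of lipoyl attachment and the related 2-oxoacid dehydrogenases, 13 were lower, none was higher and 3 did not pass, with a median log2 fold change of -0.70. Of all genes 27.7% were lower, with a median of -0.11. Dhtkd1, of lysine breakdown, was 6.01-fold lower (7.74, 7.49 and 7.57 in knockout, against 10.56, 9.93 and 10.07 in wild type; adjusted p = 4.07e-05). Bckdha, of the branched-chain complex, was 2.42-fold lower (adjusted p = 0.000150), and Ogdh, of the oxoglutarate complex, 2.39-fold lower (adjusted p = 0.000123). Averaged over its 2 probe sets, the log2 fold change of Ogdh was -0.78 instead of -1.26.

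The branched-chain complex has its own kinase and phosphatase, which were named after their values were seen. Bckdk, the kinase and a relative of the Pdk family, was 1.38-fold lower (log2 fold change -0.47, SE 0.10, adjusted p = 0.00631). Ppm1k, the phosphatase, had a log2 fold change of -0.15 (SE 0.09, adjusted p = 0.166), which did not pass, and its other probe set was called in the opposite direction. After a second quantile normalization Ppm1k was called lower (log2 fold change -0.26, adjusted p = 0.0493).

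On the supply side, 19 genes of pyruvate transport and fate split, with 6 higher, 9 lower and 4 not called, and a median log2 fold change of -0.21. Over all genes, 21.6% were higher and 27.7% lower, with a median of -0.11. Mpc1, a subunit of the mitochondrial pyruvate carrier, read 11.87, 11.85 and 11.95 in knockout arrays, against 12.75, 12.64 and 12.66 in wild-type arrays. It was 1.74-fold lower (log2 fold change -0.80, SE 0.08, adjusted p = 0.000220), and its groups did not overlap. Among the lower genes were Slc16a7, a monocarboxylate transporter, at 4.77-fold, Pcx, the carboxylase that takes pyruvate to oxaloacetate, at 3.21-fold, and Pck1, cytosolic phosphoenolpyruvate carboxykinase, at 2.73-fold. Their adjusted p-values were 0.000164, 0.000172 and 0.00261.

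Among the higher genes, Pklr, the liver and red cell pyruvate kinase, was 3.12-fold higher, at 9.55, 9.46 and 9.27 in knockout and 7.48, 8.07 and 7.80 in wild type (adjusted p = 0.000182). Averaged over its 3 probe sets, the log2 fold change of Pklr was 1.16 instead of 1.64. Pkm, the other pyruvate kinase gene, was 2.20-fold higher (adjusted p = 0.000325), and Pck2, the mitochondrial carboxykinase, 1.88-fold higher (adjusted p = 0.000642). Genes of lactate turnover and monocarboxylate transport, named after their values were seen, were split. Of the lactate dehydrogenase subunits, Ldha was 1.42-fold higher (adjusted p = 0.00427) and Ldhb 1.17-fold lower (adjusted p = 0.0419). Of the transporters, Slc16a3 was 1.66-fold higher (adjusted p = 0.000924), whereas Slc16a1 was 1.57-fold lower (adjusted p = 0.0380), as was Slc16a7 above. The call of Ldhb ended without any 1 knockout array or wild-type replicate 1 or 2 (log2 fold change -0.25 to -0.20, adjusted p = 0.0663 to 0.134). That of Slc16a1, whose groups overlapped, ended without knockout replicate 1 or 2 or wild-type replicate 1 or 2 (log2 fold change -0.63 to -0.52, adjusted p = 0.0921 to 0.116). With replicate number added to the limma fit, both calls also ended (adjusted p = 0.108 for Ldhb and 0.0608 for Slc16a1). The other Slc16a1 probe set was not called. The Ldhb probe set is of the same type as that of Dlat, and of its others 2 were called lower and 1 was not called.

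**Figure D4:**
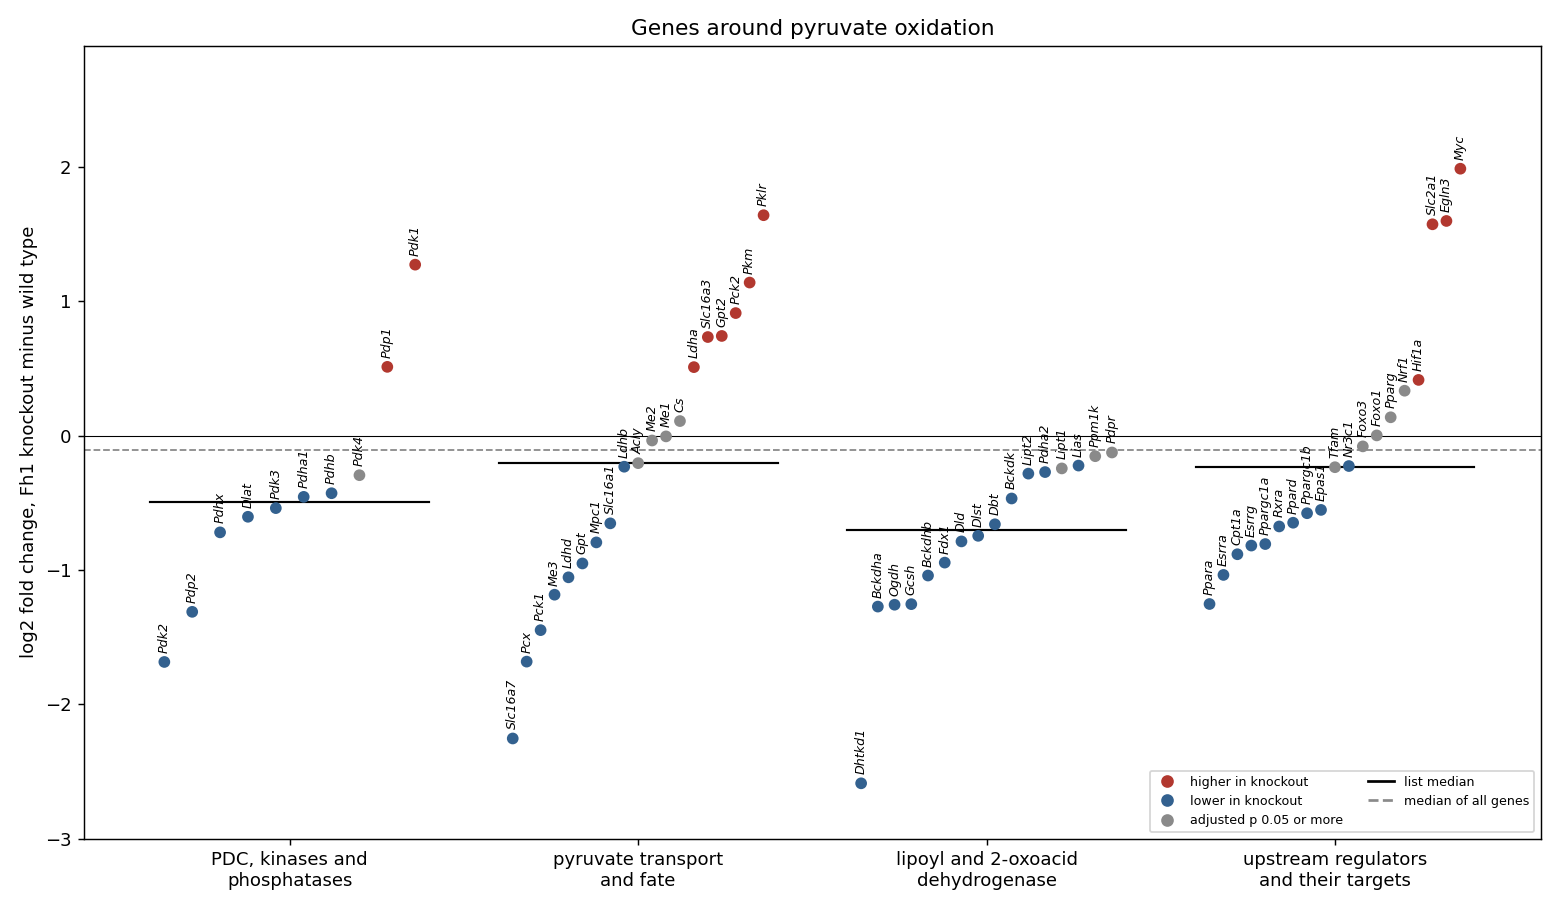
Log2 fold change (knockout minus wild type) of the 10 genes (PDC, pyruvate dehydrogenase complex) and of 3 lists around them, sorted within each list; red, blue and grey mark higher, lower and not called, black lines the list medians and the dashed line the median of all genes. The lipoyl and 2-oxoacid dehydrogenase list has no gene called higher, and the other groups hold genes called in both directions.

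Transcriptional regulators of the kinase genes or of mitochondrial genes, with a few of their targets, were listed as well. Of 19 genes, 4 were higher, 10 lower and 5 not called, with a median log2 fold change of -0.24. Shares over all genes were 21.6% higher and 27.7% lower, with a median of -0.11, so the share called higher was near that of all genes. Ppara, the fatty acid receptor that induces Pdk4 in other tissues, was 2.38-fold lower, at 9.00, 8.77 and 9.07 in knockout and 10.29, 10.34 and 9.97 in wild type (adjusted p = 0.000260). Esrra, an orphan receptor of mitochondrial genes, was 2.05-fold lower (adjusted p = 0.000222), or -0.49 in place of -1.04 on the log2 scale when its 2 probe sets were averaged. Cpt1a, a fatty acid oxidation target of Ppara, was 1.84-fold lower (adjusted p = 0.000977).

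Upward, Myc rose 3.96-fold, at 8.75, 8.83 and 8.78 in knockout and 6.51, 6.79 and 7.10 in wild type (adjusted p = 6.09e-05). The hypoxia targets Egln3 and Slc2a1 were 3.03-fold and 2.97-fold higher (adjusted p = 5.25e-05 and 0.000281). Hif1a, which encodes the HIF-1 alpha subunit, read 11.53, 11.60 and 11.46 in knockout and 11.17, 11.34 and 10.83 in wild type. It passed narrowly (log2 fold change 0.41, SE 0.13, adjusted p = 0.0354), and none of its 3 other probe sets was called. The call of Hif1a ended without any 1 knockout array or wild-type replicate 1 (log2 fold change 0.38 to 0.45, adjusted p = 0.0598 to 0.104), with the mean over probe sets (log2 fold change 0.10) and under both ways of centring the arrays (0.38 and 0.34).

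Genes with the profile most like that of a member were ranked by the root mean square distance over the 6 arrays, after each gene was centred on its own mean. For Pdk2, the kinase with the largest change, the 5 nearest characterised genes were Ivd, Dcxr, Slc16a9, Aldh4a1 and Pgap6, at distances of 0.07 to 0.09 log2 units. Only 7 genes lay within 0.1 of Pdk2. For Pdha1 they were Barx2, Cdh15, Slc25a3, Rbfa and Mrps7, at 0.02 to 0.03, and 1027 genes lay within 0.1. A profile over 6 arrays in 2 groups is mostly the group difference, and a fall the size of that of Pdha1 was common on these arrays.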

How the data were processed

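The 6 arrays were grouped by title. The authors deposited log2 values for 45101 probe sets, made with RMA per the submitters' processing notes; the log2 scale follows from their range (2.90 to 14.8). RMA gives no detection call and compresses folds of dim genes. No counting depth exists, and 3 samples a group limit the precision.

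By the platform annotation, 34945 probe sets had 1 gene, 932 several, 9160 none and 64 were controls; symbols came from RefSeq (GRCm38.p6) for 34741. Each of 18193 genes was read from its highest-mean probe set. Groups were compared with limma 3.58.1 (lmFit, eBayes; R 4.3.3), two-sided, unfiltered, with Benjamini-Hochberg adjustment over all genes at 0.05, and other probe sets in a fit over all 45037 that are not controls. The fit was tested on simulated data.

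The members and lists were chosen with earlier results of these data known. From each list the text names by rule the 3 called genes that changed most in each direction, besides Dld, Pdpr, Mpc1 and Hif1a; Bckdk, Ppm1k, Ldha, Ldhb, Slc16a1 and Slc16a3 were added after their values were seen. Mpc2, Ogdhl and some other listed genes were not analysed here. Alternatives covered probe set choice, a signal filter, the prior, scaling, weights, a replicate block, left-out arrays and thresholds. Python 3.11.15 and matplotlib 3.10.9 drew the plots.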

Additional observations from a re-analysis of the deposited data

How the results depend on the processing

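Over 15 alternatives (14 for Pdp1, which lay below the median signal), Pdha1, Pdhb, Dlat, Pdhx, Pdk1, Pdk2, Pdk3, Pdp1 and Pdp2 kept their direction and stayed called, with adjusted p at most 0.0226, and Pdk4 was never called. Without 1 array, the log2 fold change of Pdk4 was -0.47 to 0.046, positive only without wild-type replicate 2, and that of Ppm1k was 0.14 with the mean of its probe sets. With dim genes left out (below the median signal), 1 member was higher, since Pdp1 was not tested there, and 2944 genes of all were higher and 2334 lower. Requiring 1.5-fold left 1 member higher and 4 lower, and 2157 higher and 1620 lower of all genes. A threshold of 0.01 left 2640 genes higher and 2371 lower. Testing all probe sets gave 9271 higher and 10529 lower. Leaving out 1 array gave 3160 to 4810 genes lower, the lowest counts without knockout replicate 1 (3160) and knockout replicate 3 (3279), and 2 members higher and 7 lower each time. Same-numbered samples did not deviate together (r = -0.10, -0.13 and -0.13 across genes), and nothing in the labels pairs them; with a replicate block, 2 members were higher and 7 lower, and 3510 and 3930 of all genes. The direction of all 7 isozyme differences held without any 1 array.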
